A study of Mus musculus with 25 samples.

Results

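The data below address how the response of the mouse liver to a NAMPT vector differed with hepatocyte SIRT1 genotype. The quantity reported is an interaction, the log2 NAMPT effect in SIRT1 LKO mice minus the log2 NAMPT effect in WT mice. It was taken from the 22 Western diet libraries of the 25 in the series, chosen by their titles and not by any measured value. The 4 groups were WT mice given empty vector (WT EV, n = 6), WT mice given the NAMPT vector (WT NAMPT, n = 6), SIRT1 LKO mice given empty vector (LKO EV, n = 5) and SIRT1 LKO mice given the NAMPT vector (LKO NAMPT, n = 5). The labels give all of them as liver of C57B/6J mice aged 20 weeks, and the study used males. WT mice were littermates carrying the unrecombined floxed Sirt1 allele, and SIRT1 LKO mice also carried Albumin-cre, so that deletion was aimed at hepatocytes and not at other liver cells. Every mouse in all 4 groups received an AAV8 vector and the Western diet, and NAMPT was driven by the hepatocyte-selective thyroxine-binding globulin promoter. One protocol field of the labels names SIRT1 as the vector insert, and the groups here follow the titles, which name NAMPT. Poly-A RNA was sequenced as short single reads and counted per gene.

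NAMPT is the enzyme that makes nicotinamide mononucleotide from nicotinamide, the rate-limiting step by which mammalian cells recycle NAD+. SIRT1 is a deacetylase that consumes NAD+ and acts on transcription regulators, among them PGC-1α, NF-κB subunits and partners of the fasting receptor PPARα. In liver, PPARα drives mitochondrial and peroxisomal fatty acid oxidation, microsomal ω-hydroxylation and the hepatokine FGF21.

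The 22 libraries held 20166175 to 32937326 counts each, and no pair of libraries within a group looked like copies of one another. Pairs from different groups were not compared in this way. All 10 hepatocyte markers examined were counted in every library, albumin (Alb) with at least 660310 reads. Sirt1, the deleted gene, did not separate the genotypes: its level in TMM-normalized CPM, counts scaled to library size and the unit used throughout, was 8.01 to 9.54 in WT EV, 7.62 to 9.34 in WT NAMPT, 7.17 to 10.1 in LKO EV and 8.1 to 11.1 in LKO NAMPT. Counts over a whole gene do not separate a transcript that lacks an exon from an intact one, so genotype directions below rest on the labels, and "LKO" stands for libraries labelled SIRT1 LKO. Nampt counts were 47.4 ± 6.47 CPM in WT EV, 59.6 ± 10.6 in WT NAMPT, 56.2 ± 12.0 in LKO EV and 80.1 ± 28.5 in LKO NAMPT (SD). They did not pass the test in either genotype (limma adjusted p = 0.145 in WT and 0.413 in LKO), and no source used here says whether vector transcripts were counted at the mouse gene. In the same fit the interaction for Nampt was 0.07 ± 0.23 (SE) with an adjusted p of 0.877, a direction that turned to -0.10 when libraries were scaled by their totals alone. Libraries within a group were not alike. On the first principal component, 36% of the variance, WT NAMPT replicates 1 to 4 lay between -66.15 and -25.22, replicate 5 at -0.62 and replicate 6 at 37.72, the highest value of all 22. LKO NAMPT replicate 1 lay at -27.44, against 1.55 to 20.54 for the other LKO NAMPT libraries. The fitted sample weights, which let a noisier library count for less, were under 0.6 for WT NAMPT replicates 1, 2 and 6 and LKO NAMPT replicates 1 and 3. Results are therefore also given without WT NAMPT replicate 6, without LKO NAMPT replicate 1, and without all 5 of the low-weight libraries.

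Across 13935 genes tested, 1 gene differed in its NAMPT response between the genotypes at an adjusted p of at most 0.05 (limma with sample weights, Benjamini-Hochberg adjustment), which is 0.00718% of genes. That gene was Adamtsl2. At an adjusted p of up to 0.1 there were 540 genes (3.88%), 292 with a positive interaction (2.10%) and 248 with a negative one (1.78%). At an unadjusted p under 0.05 there were 2951 genes (21.2%), 1540 positive (11.1%) and 1411 negative (10.1%). A positive value means that the NAMPT libraries stood higher against their EV controls in LKO than in WT. The arms of the contrast were very unequal: 1816 genes were called for the NAMPT effect in WT, 1031 higher (7.40%) and 785 lower (5.63%), and 1 gene (0.00718%), again Adamtsl2, was called in LKO. The counts differed by method: 18 genes were called in WT and 0 for the interaction by voom without sample weights, and 71 and 0 by edgeR's quasi-likelihood test, whereas DESeq2, also without sample weights, called 1058 and 14. WT calls of lists and WT adjusted p values of single genes below come from the fit with sample weights. Without weights 1514 genes still had an unadjusted interaction p under 0.05 (10.9%), and by edgeR 1452 did (10.4%). The split between positive and negative genes depended on scaling. Positive genes were 52.2% of those with an unadjusted p under 0.05 after TMM scaling, 37.7% after upper-quartile scaling and 22.1% of 2811 (20.2% of genes) with library totals alone, which put the median of all genes at -0.154. A fit that added 2 surrogate variables, components of spread estimated from the same libraries, moved single values: of 69 named genes the interaction turned sign in 1, was smaller by more than 1.5 times in 28 and larger by as much in 2.

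**Figure D1:**
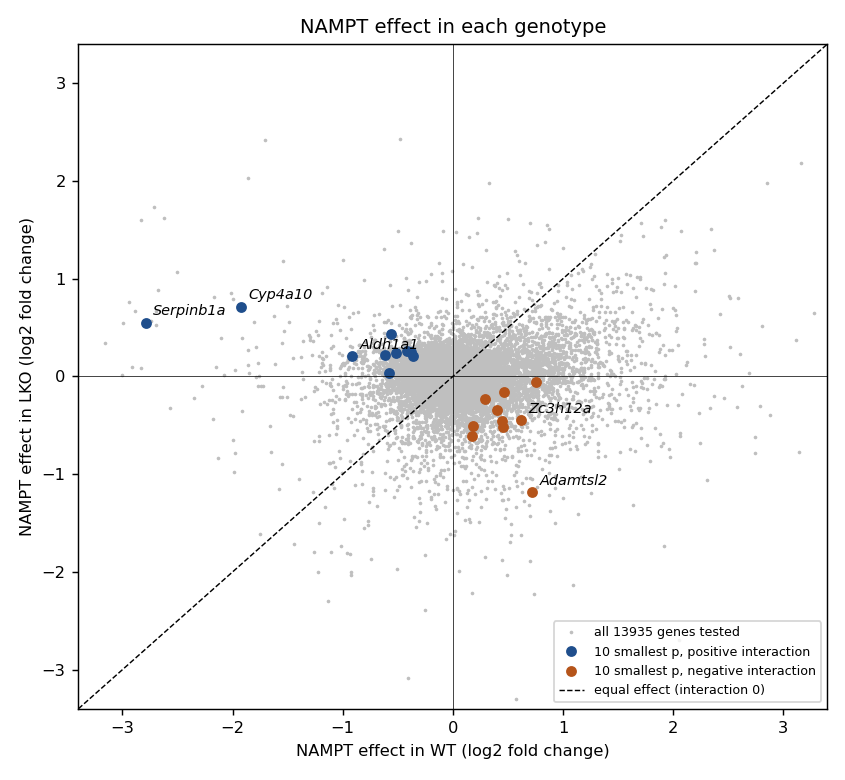
NAMPT effect in WT (x axis, log2 fold change) against the NAMPT effect in LKO (y axis, log2 fold change) for the genes tested, with 5 genes outside the axes. Points off the dashed line have an interaction, and the 20 coloured genes, the 10 named for the smallest interaction p in each direction, of which 1 passed the adjusted threshold, all sit in the quadrants where the estimates of the genotypes have opposite signs.

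The scatter of WT against LKO effects shows what the interaction was made of. Of the 2951 genes with an unadjusted interaction p under 0.05, 1388 had a negative estimate in WT and a positive one in LKO, and 1151 the reverse. Together these were 86% of the 2951, against 51.4% of all genes tested, a share that choosing genes for a large difference pushes upward by arithmetic. In 75.5% of the 2951 the WT estimate was the larger in size, against 63.8% of all genes. Both arms had an unadjusted p under 0.05 in 144 of these genes, all of opposite sign, while 2097 had one in WT and 591 in LKO. Over all genes tested both arms had one in 352 genes, of which 144 were of opposite sign and the rest of the same sign. In WT 4233 of all genes had one and in LKO 1329. Choosing genes by the interaction p thus set aside those that moved the same way in both genotypes.

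Adamtsl2 encodes a secreted ADAMTS-like glycoprotein that binds latent TGF-β binding protein and takes part in setting TGF-β availability in the matrix. It lies on chromosome 2 (GRCm38, chr2:27079379-27108981, plus strand), and the counts are over its exons. Its level ran from 3.44 through a median of 3.81 to 4.39 CPM in WT EV and from 3.78 through 5.98 to 8.64 CPM in WT NAMPT. In LKO EV the 5 libraries held 5.72, 7.64, 6.78, 5.96 and 6.81 CPM, and in LKO NAMPT 5.52, 2.4, 3.98, 2.58 and 2.99 CPM. Every LKO NAMPT library thus lay below every LKO EV library, an arrangement seen in 0.646% of genes, while in WT the NAMPT libraries overlapped EV through replicate 6 alone. In limma Adamtsl2 rose 1.65-fold in WT (log2 0.72 ± 0.16 SE, adjusted p = 0.0128) and fell 2.27-fold in LKO (log2 -1.18 ± 0.17, adjusted p = 0.00699). The interaction was -1.90 ± 0.23 on the log2 scale (95% interval -2.35 to -1.45, adjusted p = 0.000435). Leaving out any 1 library gave -2.01 to -1.72 with adjusted p values of 4.91e-05 to 0.00907, and leaving out the 5 low-weight libraries gave -2.12 with an adjusted p of 3.81e-05. The call was lost with edgeR's quasi-likelihood test (adjusted p = 0.218) and with voom without sample weights (adjusted p = 0.144), where the interaction was -1.58 and -1.64, at a level of 2.4 to 8.64 CPM over all libraries. The starting level differed as well, with a mean of 3.82 CPM in WT EV and 6.58 CPM in LKO EV, so that the NAMPT groups ended at 6.04 and 3.49 CPM. The bases directly upstream of the Adamtsl2 start are shown because it is the one gene called in the contrast (RefSeq, GRCm38.p6, chr2:27079129-27079378, plus strand).
Adamtsl2 upstream 250 bases: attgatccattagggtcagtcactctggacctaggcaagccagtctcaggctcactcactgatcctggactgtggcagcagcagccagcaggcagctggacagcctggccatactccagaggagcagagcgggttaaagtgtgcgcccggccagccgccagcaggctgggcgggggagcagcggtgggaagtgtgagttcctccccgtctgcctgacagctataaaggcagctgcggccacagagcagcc

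**Figure D2:**
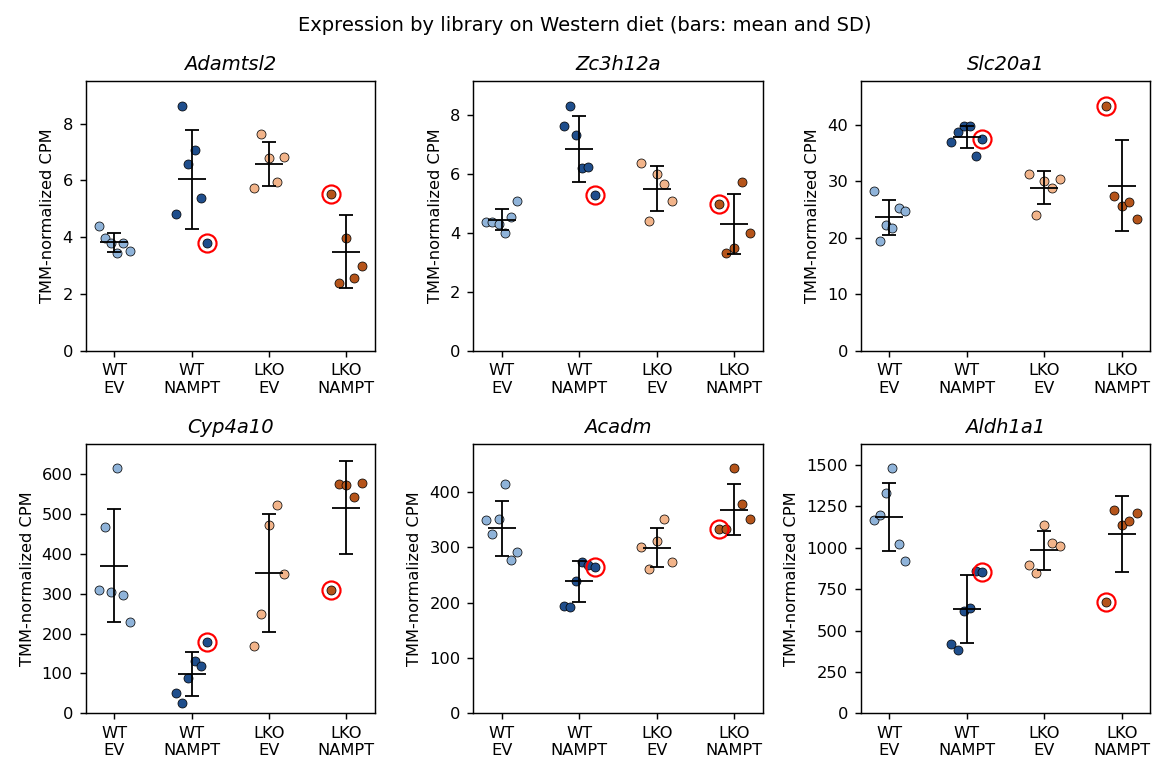
TMM-normalized CPM of 6 genes in each library of the 4 groups (points), with the group mean and SD (bars); red circles mark WT NAMPT replicate 6 and LKO NAMPT replicate 1. The upper genes have negative interactions, with Adamtsl2 lower in all 5 LKO NAMPT libraries than in LKO EV, and the lower genes positive ones, with Cyp4a10, Acadm and Aldh1a1 lower in all 6 WT NAMPT libraries than in WT EV.

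The latent TGF-β and microfibril network, a list that includes Adamtsl2, had mostly negative values. Of 28 listed genes 26 were tested, 25 of these had a negative interaction value (51.3% over all genes), and 14 had one at an unadjusted p under 0.05 against 0 positive (10.1% and 11.1% over all genes). The list was drawn up around Adamtsl2 with earlier results of these data known. The median interaction was -0.59, made of a WT median of 0.29 and an LKO median of -0.10, whereas the median over all genes was -0.01. By edgeR and by DESeq2 6 members were negative at an unadjusted p under 0.05 (4.65% and 5.04% of genes), and with the surrogate variables 7 were (5.71%) and the median was -0.18. In LKO 8 members had a negative estimate at an unadjusted p under 0.05 (5.36% of genes). By limma with sample weights on all 22 libraries Adamtsl2 alone passed the adjusted threshold, and 7 members were at an adjusted p of up to 0.1. Among those 7 were the latent TGF-β binding proteins Ltbp3 (-1.19 ± 0.33, adjusted p = 0.0866), Ltbp2 (-1.40 ± 0.40, adjusted p = 0.0893), Ltbp4 (-0.50 ± 0.15, adjusted p = 0.0944) and Ltbp1 (-0.67 ± 0.20, adjusted p = 0.0955) by limma. Itgb8, a subunit of an integrin that releases active TGF-β from its latent complex, had an interaction of -1.58 ± 0.46, nearly all of it from the LKO estimate of -1.61 against -0.03 in WT. The ligand Tgfb1 rose in WT (0.88 ± 0.20, limma adjusted p = 0.0144) and had an LKO estimate of 0.07. The receptors Tgfbr1, Tgfbr2 and Tgfbr3 and the signal carriers Smad2, Smad3 and Smad4 had interactions between -0.17 and 0.03. Without LKO NAMPT replicate 1 there were 6 members called, all negative, of 274 negative calls among 13904 genes (1.97%). Without WT NAMPT replicate 6 there were also 6 (1.93% of genes), and without the 5 low-weight libraries 4 (1.02% of genes).

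Ltbp3, which binds latent TGF-β in the matrix, shows how single libraries sat in that list. WT EV ran from 1.93 through 3.65 to 4.64 CPM and WT NAMPT from 1.73 through 6.11 to 7.32 CPM. LKO EV libraries held 5.68, 3.06, 4.28, 3.72 and 4.89 CPM, and LKO NAMPT libraries 6.12, 2.8, 2.88, 3.22 and 3.43 CPM. The lowest WT NAMPT library was replicate 6 and the highest LKO NAMPT library was replicate 1, which lay on the far side of their groups from the rest. Without LKO NAMPT replicate 1 the Ltbp3 interaction was -1.30 (limma adjusted p = 0.0342) and without WT NAMPT replicate 6 it was -1.29 (adjusted p = 0.0325). Over the 22 fits that each left out 1 library, its limma adjusted p ran from 0.0325 to 0.261, and 2 fits passed.

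Beyond Adamtsl2, the negative genes with the smallest p values fell short of the adjusted threshold in this fit, and some passed in other fits of all 22 libraries. Zc3h12a encodes Regnase-1, an RNase that degrades inflammatory cytokine mRNAs. It ran from 3.99 through 4.39 to 5.09 CPM in WT EV and from 5.29 through 6.78 to 8.33 CPM in WT NAMPT. The libraries of LKO EV held 6.37, 4.42, 6, 5.65 and 5.1 CPM, and those of LKO NAMPT 5, 3.32, 3.5, 5.72 and 4.01 CPM. WT NAMPT lay wholly above WT EV, as it did in 0.380% of genes, and the LKO groups overlapped. The interaction was -1.06 ± 0.19 (limma adjusted p = 0.0615). It passed with upper-quartile scaling (adjusted p = 0.0402), by DESeq2 (0.0173) and with a clock-gene score as covariate (0.0226), and not by edgeR (0.239).

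Slc20a1, a sodium-dependent phosphate transporter, showed a shift in WT and almost none in LKO. WT EV spanned 19.5 to 28.2 CPM around a median of 23.5 and WT NAMPT 34.4 to 39.7 CPM around 38.2, with no overlap. In LKO EV the values were 31.2, 24, 30, 28.8 and 30.4 CPM and LKO NAMPT libraries 43.4, 27.3, 25.6, 26.4 and 23.3 CPM. Replicate 1 of LKO NAMPT was above every other library here, and without it the interaction went from -0.81 (limma adjusted p = 0.0615) to -0.90 (adjusted p = 0.00447). Over the 22 fits that each left out 1 library, the limma adjusted p of Slc20a1 ran from 0.00447 to 0.173, and 5 fits passed. The other 7 of the 10 negative genes named by this ranking were Dlec1, the pseudogene Ppp4r1l-ps, the TGF-β-binding membrane protein gene Vasn, the LIM-domain adaptor gene Ldb1, the T-box repressor gene Tbx2, Zfp276 and the polycystin gene Pkd1, with interactions from -0.98 to -0.53. In 6 of these 7 the adjusted p was 0.0615, and for Pkd1 it was 0.0692. Dlec1 passed in the same 3 other fits as Zc3h12a (adjusted p = 0.0402, 0.0157 and 0.0316) and with library totals (0.0321). Ppp4r1l-ps and Zfp276 drew mostly on LKO (estimates of -0.51 and -0.61), where Dlec1 and Ppp4r1l-ps, like Adamtsl2, were lower in all 5 NAMPT libraries than in any EV library.

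On the positive side no gene passed in this fit, and the list nearest to it was that of FGF21 signalling and PPARα targets. All 36 genes of this list were tested. At an unadjusted p under 0.05 there were 16 positive and 2 negative members, against 11.1% and 10.1% of all genes, and 30 of 36 values were positive against 48.7% of all genes. The median interaction was 0.34, from a WT median of -0.34 and an LKO median of 0.08. In WT 13 members fell and 2 rose by limma (5.63% and 7.40% over all genes), and in LKO none was called. By edgeR 14 members were positive at an unadjusted p under 0.05 (5.77% of genes), by DESeq2 15 (6.19%) and with the surrogate variables 20 (8.36%). With all 22 libraries 4 members were called by DESeq2, all positive (Acadm, Cyp4a10, Cyp4a14 and Ehhadh, where 0.0574% of genes were called positive), and 14 with the clock-gene score, 13 of them positive (1.96% of genes). At an adjusted p of up to 0.1 there were 14 members. Without LKO NAMPT replicate 1 there were 11 members called (10 positive, where 2.39% of genes were called positive), without WT NAMPT replicate 6 there were 10 (9 positive, background 1.86%), and without the 5 low-weight libraries there were 4, all positive (background 0.948%).

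Cyp4a10, a microsomal fatty acid ω-hydroxylase and a classical PPARα target, had the smallest p of the positive genes. WT EV libraries ran from 230 through 308 to 614 CPM and WT NAMPT libraries from 27.3 through 103 to 179 CPM. Libraries of LKO EV held 170, 248, 473, 522 and 349 CPM, and LKO NAMPT libraries 308, 575, 573, 543 and 577 CPM. WT NAMPT lay wholly below WT EV, an arrangement shared by 0.596% of genes, and in LKO the groups overlapped with LKO NAMPT replicate 1 lowest in its group. Cyp4a10 fell 3.8-fold in WT (log2 -1.93 ± 0.30, limma adjusted p = 0.00389), and the LKO estimate was 0.71 ± 0.34 (adjusted p = 0.522). The interaction of 2.64 ± 0.46 (95% interval 1.75 to 3.53) had an adjusted p of 0.0501. With all 22 libraries it passed with upper-quartile scaling (adjusted p = 0.0402), library totals (0.0124), DESeq2 (0.0125), the surrogate variables (0.034) and the clock-gene score (0.0109), and not by edgeR (0.239) or voom without sample weights (0.234). It became 2.74 without LKO NAMPT replicate 1 (adjusted p = 0.0124), 2.74 without WT NAMPT replicate 6 (adjusted p = 0.0231) and 2.47 without the 5 low-weight libraries (adjusted p = 0.0291). Over the 22 fits that each left out 1 library, the limma adjusted p of Cyp4a10 ran from 0.0124 to 0.173, and 9 fits passed.

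The neighbouring family members Cyp4a14 (2.73 ± 0.67, limma adjusted p = 0.0764), Cyp4a31 (1.02 ± 0.29, adjusted p = 0.0909) and Cyp4a32 (1.0 ± 0.31, adjusted p = 0.0985) had interactions of the same sign. These genes are close copies of one another on chromosome 4, so their counts may share reads and are not separate evidence. Cyp4a14 in LKO NAMPT held 336, 231, 710, 284 and 200 CPM, of which replicate 3 was the furthest out.

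Enzymes of fatty acid oxidation are given here by role, as members chosen after their values were seen. Acadm, the medium-chain acyl-CoA dehydrogenase, spanned 277 to 415 CPM around 336 in WT EV and 193 to 274 CPM around 252 in WT NAMPT, without overlap. In LKO EV there were 300, 261, 312, 351 and 274 CPM and LKO NAMPT libraries 334, 334, 443, 379 and 351 CPM. The interaction was 0.70 ± 0.15 (limma adjusted p = 0.0633), with a fall of 1.34-fold in WT (adjusted p = 0.0159) and an LKO estimate of 0.27 (adjusted p = 0.417). Hadha and Hadhb, the subunits of the mitochondrial trifunctional protein, had interactions of 0.36 ± 0.11 and 0.66 ± 0.15 (adjusted p = 0.0944 and 0.0698). Cpt2 and Slc25a20, which pass acylcarnitines into the matrix, had 0.55 and 0.66, and the long-chain and very-long-chain acyl-CoA dehydrogenases Acadl and Acadvl 0.43 and 0.33. The peroxisomal Ehhadh had 0.88 ± 0.19. All of these except Acadl and Acadvl fell in WT, with adjusted p values from 0.0127 to 0.0318, and those 2 had 0.0589 and 0.0533. Cpt1a, the entry step of the carnitine shuttle, had an interaction of 0.15 ± 0.16, and the targets Pdk4, Angptl4, Plin2, Cidec and Acot2 lay between -0.10 and 0.11. Ppara itself was at 0.39 ± 0.24 (adjusted p = 0.347).

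Upstream sequence is given for Hadhb, which shares its promoter region with Hadha and like it fell in WT, and for Fabp1, a fatty acid binding protein gene whose interaction was 0.15 ± 0.26, as the one list member with a match to the motif searched. The RefSeq table (GRCm38.p6) held 30 windows of 250 bases upstream of a start for 26 of the 36 genes. They were searched on both strands for the PPARα-type direct repeat AGGTCANAGGTCA with at most 1 mismatch. Among all 32851 RefSeq promoters there were 159 with such a match (0.484%), and of the 30 windows 1 did, on the minus strand of Fabp1, where the capitals mark it. Hadha and Hadhb start in opposite directions and 228 of their 250 bases are common to both windows. Hadhb is at chr5:30155003-30155252 and Fabp1 at chr6:71199629-71199878, both on the plus strand.
Hadhb upstream 250 bases: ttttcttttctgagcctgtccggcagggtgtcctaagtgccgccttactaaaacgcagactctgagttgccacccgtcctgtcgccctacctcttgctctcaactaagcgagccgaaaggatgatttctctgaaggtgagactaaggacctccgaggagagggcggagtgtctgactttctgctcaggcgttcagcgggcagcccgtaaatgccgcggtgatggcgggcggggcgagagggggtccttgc
Fabp1 upstream 250 bases: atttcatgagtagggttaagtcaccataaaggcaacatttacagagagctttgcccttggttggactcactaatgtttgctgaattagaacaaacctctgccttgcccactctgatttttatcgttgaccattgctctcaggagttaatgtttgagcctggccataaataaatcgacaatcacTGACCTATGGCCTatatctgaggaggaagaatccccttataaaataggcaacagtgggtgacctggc

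No gene of the FGF21 axis itself passed by limma with sample weights on all 22 libraries. Fgf21 ran from 0.37 through 3.92 to 14.5 CPM in WT EV and from 1.4 through 9.53 to 26.9 CPM in WT NAMPT. The LKO EV libraries held 11, 7.89, 7.43, 6.43 and 3.51 CPM, and LKO NAMPT libraries 4.33, 7.6, 6.03, 6.44 and 8.26 CPM. In WT NAMPT 4 of the 6 libraries lay within the range of WT EV and replicates 1 and 2 above it, and the LKO groups overlapped. The WT estimate was 1.44 ± 0.54 (limma adjusted p = 0.078), the LKO estimate 0.02 ± 0.50 and the interaction -1.41 ± 0.73 (95% interval -2.85 to 0.03, adjusted p = 0.269), or -0.89 without WT EV replicate 8 and -0.18 with the surrogate variables. Its co-receptor Klb was at 0.30 ± 0.22, and of the receptors Fgfr2 had -0.48 ± 0.12 (adjusted p = 0.0764) and Fgfr1 -0.92 ± 0.35 (adjusted p = 0.147), while Fgfr3 and Fgfr4, the main hepatocyte form, had -0.09 and -0.08.

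De novo lipogenesis, the making of fatty acids from sugar, had no gene called for the interaction by limma with sample weights on all 22 libraries. Of 22 genes 1 was positive and 1 negative at an unadjusted p under 0.05 (11.1% and 10.1% over all genes), and the median interaction was 0.10. Without single libraries that median ran from -0.02 (WT NAMPT replicate 2) to 0.29 (WT NAMPT replicate 5), and it was 0.21 by edgeR and by DESeq2 and -0.07 with library totals. The WT median was -0.36 and the LKO median -0.10. The negative gene was the desaturase gene Scd2 at -0.53 ± 0.24. The glycerol-3-phosphate acyltransferase gene Gpam was the one positive gene, at 0.73 ± 0.34 (95% interval 0.05 to 1.4, limma adjusted p = 0.228). Elovl6, a fatty acid elongase, was at 0.66 ± 0.40 (95% interval -0.12 to 1.44), fatty acid synthase (Fasn) at 0.38 ± 0.48 (interval -0.56 to 1.33) and the desaturase Scd1 at 0.35 ± 0.29 (interval -0.21 to 0.92). Pyruvate kinase (Pklr) and acetyl-CoA carboxylase (Acaca) were at 0.12 ± 0.33 (interval -0.53 to 0.77) and 0.02 ± 0.29 (interval -0.55 to 0.60). The intervals of Fasn, Pklr and Acaca reach beyond 0.5 log2 units either way, and the sign of Fasn, Pklr and Acaca turned under at least 1 of the alternatives tried.

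**Figure D3:**
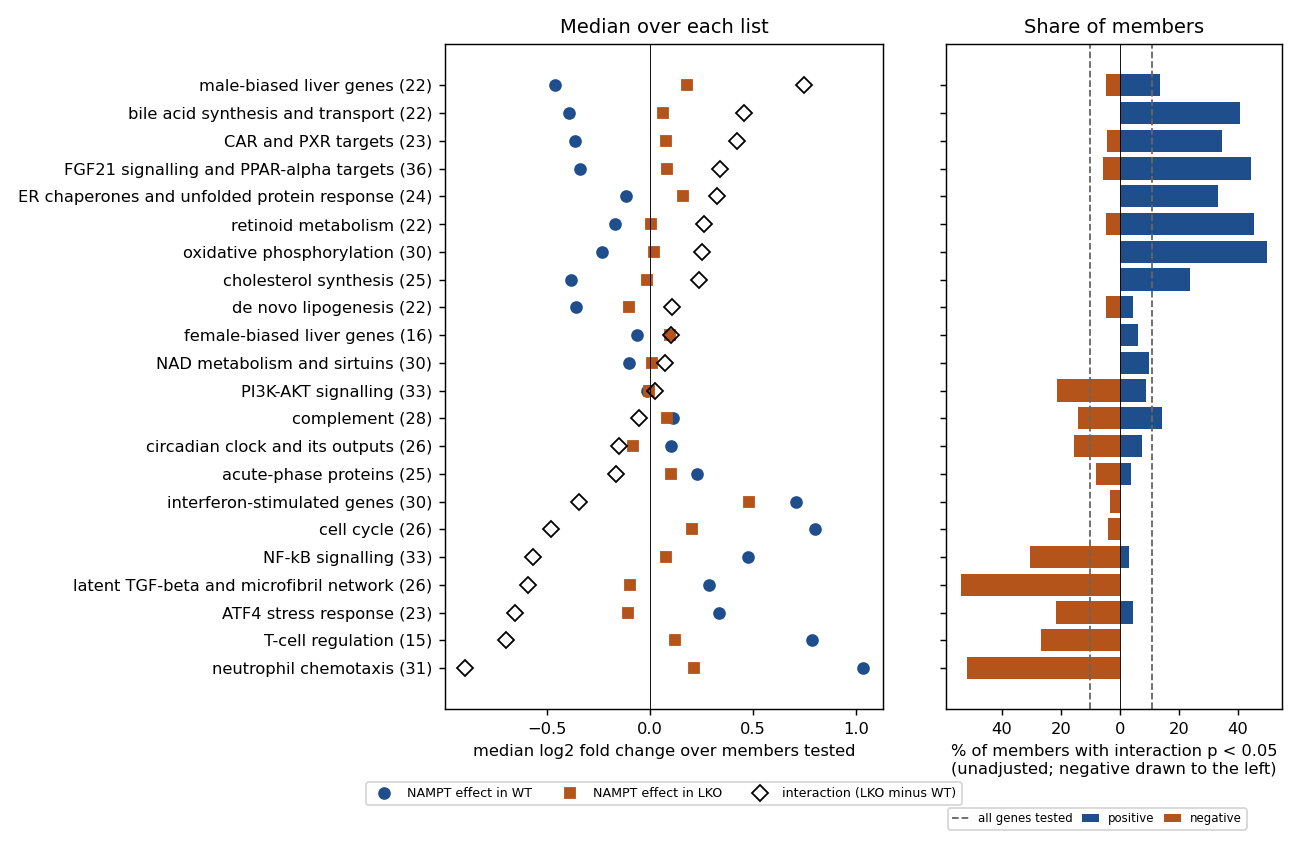
Left, median log2 fold change of the NAMPT effect in WT (circles), in LKO (squares) and of the interaction (diamonds) over the tested members of 22 gene lists (number tested in brackets). Right, percent of members with an unadjusted interaction p under 0.05, positive to the right and negative to the left, with dashed lines at 11.1% and 10.1% for all genes; oxidative phosphorylation and retinoid metabolism reach furthest to the right, latent TGF-β and neutrophil chemotaxis furthest to the left.

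Several other metabolic lists had positive medians, as the plot of gene lists shows. Shares at an unadjusted p under 0.05 are to be read against 11.1% positive and 10.1% negative over all genes. For oxidative phosphorylation, the respiratory chain and ATP synthase, 15 of 30 genes were positive and 0 negative, the median was 0.25, and 11 fell in WT with none rising (5.63% and 7.40% over all genes). Uqcrc2, a core subunit of complex III, spanned 170 to 212 CPM around 180 in WT EV and 105 to 183 around 146 in WT NAMPT. Its libraries in LKO EV held 151, 177, 192, 192 and 169 CPM and in LKO NAMPT 178, 203, 221, 173 and 198 CPM. The highest WT NAMPT library was again replicate 6, and the interaction was 0.49 ± 0.13 (limma adjusted p = 0.0811). With libraries scaled by their totals alone the Uqcrc2 value was 0.35, and 4 of the 30 genes had a positive value at an unadjusted p under 0.05, where 4.46% of all genes did. Under that scaling the retinoid list described next had 7 of 22 positive and a median of 0.11, ER chaperones 3 of 24 and 0.18, cholesterol synthesis 4 of 25 and 0.09, and PPARα targets 13 of 36 and 0.20. By edgeR 8 oxidative phosphorylation genes were positive and by DESeq2 10 (5.77% and 6.19% of genes), and with the surrogate variables 10 were (8.36%) and the median was 0.12.

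Retinoid metabolism, the storage and conversion of vitamin A, had 10 positive and 1 negative of 22 genes tested and a median of 0.26, or 7 positive by edgeR and by DESeq2 and a median of 0.16 with the surrogate variables. Aldh1a1, which makes retinoic acid from retinal, ran from 918 through 1180 to 1480 CPM in WT EV and from 380 through 628 to 860 CPM in WT NAMPT, with no overlap. Values in LKO EV were 893, 849, 1140, 1030 and 1010 CPM and LKO NAMPT libraries 673, 1230, 1140, 1160 and 1210 CPM. Aldh1a1 fell 1.89-fold in WT (limma adjusted p = 0.00525), the LKO estimate was 0.21, and the interaction was 1.12 ± 0.22 (adjusted p = 0.0615), or 1.22 without LKO NAMPT replicate 1 (adjusted p = 0.0132). Over the 22 fits that each left out 1 library, the limma adjusted p of Aldh1a1 ran from 0.0132 to 0.177, and 4 fits passed. By limma Cyp26a1, which clears retinoic acid, had 1.15 ± 0.30 (adjusted p = 0.082).

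Bile acid synthesis and transport had 9 positive and 0 negative of 22 genes and a median of 0.46, with 8 members falling and 1 rising in WT (5.63% and 7.40% over all genes). By edgeR 3 were positive and by DESeq2 4 (5.77% and 6.19% of genes) with a median of 0.28 by each, and with the surrogate variables 4 were (8.36%) and the median was 0.13. Cyp8b1, the sterol 12α-hydroxylase that sets the share of cholic acid, ran from 351 through 409 to 510 CPM in WT EV and from 39.9 through 102 to 329 CPM in WT NAMPT. In LKO EV it held 331, 358, 393, 212 and 261 CPM and in LKO NAMPT 156, 337, 324, 331 and 401 CPM. WT NAMPT replicates 5 and 6 stood at 299 and 329 CPM, well above the other 4, and still below every WT EV library. Cyp8b1 fell 3.61-fold in WT (limma adjusted p = 0.00389) with an LKO estimate of 0.03, and the interaction was 1.88 ± 0.43 (adjusted p = 0.0698). Targets of the xenobiotic receptors CAR and PXR had 8 positive and 1 negative of 23 and a median of 0.42, ER chaperones 8 positive and 0 negative of 24 and a median of 0.32, and cholesterol synthesis 6 positive and 0 negative of 25 and a median of 0.24. The CAR and PXR median was 0.21 to 0.28 without any 1 of 6 libraries (WT EV replicate 2, WT NAMPT replicates 2 and 5, LKO EV replicates 1 and 2 and LKO NAMPT replicate 4), and ER chaperones had 3 positive by edgeR. In these lists Sel1l, part of the ER degradation machinery (0.55 ± 0.13, adjusted p = 0.0764), and Hmgcs1, the HMG-CoA synthase of sterol synthesis (1.04 ± 0.32, adjusted p = 0.1), had the smallest p values for the last 2 lists. Among genes in no list, Serpinb1a, an intracellular inhibitor of neutrophil proteases, had the largest value of the 10 smallest-p positive genes at 3.33 ± 0.67 (adjusted p = 0.0615), with 10.7 ± 4.84, 1.89 ± 0.95, 4.97 ± 2.92 and 7.04 ± 3.43 CPM (SD) in WT EV, WT NAMPT, LKO EV and LKO NAMPT. The others were Mmd, Tmem102, Vps45, Cisd3, Mtmr4, Poc1b and Acsf2, with interactions of 0.58 to 1.0 and an adjusted p of 0.0615 each, and all of them fell in WT.

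Inflammatory lists lay on the negative side. Neutrophil chemotaxis, a set that includes chemokines, their receptors and integrins, had 16 of 31 tested genes negative and 0 positive at an unadjusted p under 0.05 (10.1% and 11.1% over all genes), and every one of the 31 values was below 0 (51.3% over all genes). The median interaction was -0.90, from 1.03 in WT and 0.21 in LKO. By limma with sample weights 24 members rose in WT with none falling (7.40% and 5.63% over all genes). Among all genes tested the WT arm called 18 without the weights, 22 with the surrogate variables and 71 by edgeR. For the interaction 7 members were negative by edgeR and by DESeq2 (4.65% and 5.04% of genes), and with the surrogate variables 3 were (5.71%) and the median was -0.14. Itgam, the integrin chain that pairs into the complement receptor of neutrophils and macrophages, ran from 0.993 through 1.84 to 2.83 CPM in WT EV and from 1.08 through 6.38 to 11.1 CPM in WT NAMPT. For LKO EV the values were 4.43, 3.22, 3.27, 1.08 and 2.04 CPM and LKO NAMPT libraries held 6.85, 2.11, 1.88, 1.61 and 2.82 CPM. Replicate 1 was again apart in LKO NAMPT, and in WT NAMPT only replicate 6 fell within the range of WT EV. Itgam rose 3.66-fold in WT (limma adjusted p = 0.0146), the LKO estimate was -0.11, and the interaction was -1.98 ± 0.62 (adjusted p = 0.101). The interaction was -2.16 without LKO NAMPT replicate 1 (adjusted p = 0.0474) and -2.19 without WT NAMPT replicate 6 (adjusted p = 0.0388). With the surrogate variables it was -0.86 (adjusted p = 0.258). Over the 22 fits that each left out 1 library, the limma adjusted p of Itgam ran from 0.0388 to 0.266, and 2 fits passed. Without LKO NAMPT replicate 1 2 genes of this list were called (1.97% of genes negative), without WT NAMPT replicate 6 there were 5 (1.93%), and without the 5 low-weight libraries 1 of 29 tested (1.02%), all negative.

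Marker lists of other cell types are given beside these results. By limma with sample weights on all 22 libraries none of their genes was called for the interaction. In whole liver, fewer cells of a type and less RNA per cell cannot be told apart. The summed level of the 13 markers of recruited and lipid-associated macrophages ran from 53.1 to 213 CPM in WT EV, 53.8 to 565 in WT NAMPT, 69.9 to 186 in LKO EV and 103 to 319 in LKO NAMPT, and all 13 had negative interaction values (51.3% over all genes), 5 at an unadjusted p under 0.05 (10.1%) and 0 by edgeR and by DESeq2. Kupffer cell markers summed to 383 to 672, 587 to 1010, 424 to 523 and 433 to 703 CPM in the same order, with 9 of 10 values negative. Neutrophil markers summed to at most 8.4, 27.1, 8.71 and 19.5 CPM, with 6 of 10 tested. Of the defining neutrophil genes, Ly6g had 0 counts in 15 of the 22 libraries and at most 2, and Mpo had 0 counts in 8. Stellate cell and myofibroblast markers summed to 347 to 573, 359 to 920, 434 to 553 and 425 to 692 CPM, and all 12 had negative values, 7 at an unadjusted p under 0.05 (3 by edgeR and by DESeq2), among them the collagen gene Col1a1 (-2.02) and the PDGF receptor gene Pdgfrb (-0.81). Cholangiocyte markers had 5 of 8 tested, all negative with a median of -1.06 (LKO -1.12, WT 0.02), 3 at an unadjusted p under 0.05 and 0 by edgeR and by DESeq2, and the median was -0.55 with the surrogate variables. Hepatocyte markers had a median interaction of 0.04 and sinusoidal endothelial markers of -0.10, each over 10 genes. With the surrogate variables the medians were 0.03 for the recruited macrophage markers and -0.17 for the stellate markers. Of the T and NK cell markers 7 of 10 were tested and 1 was negative at an unadjusted p under 0.05, as was 1 of the 4 B and plasma cell markers tested of 8. Of 5 adipocyte markers only Cfd was high enough to test, with an interaction of 4.24 and levels of 0.926 to 60.9, 0.153 to 75.1, 2.09 to 17.3 and 0.804 to 60.4 CPM, so that the groups overlapped throughout. The part of these cell markers in the results for the latent TGF-β, chemotaxis and NF-κB lists was not tested.

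**Figure D4:**
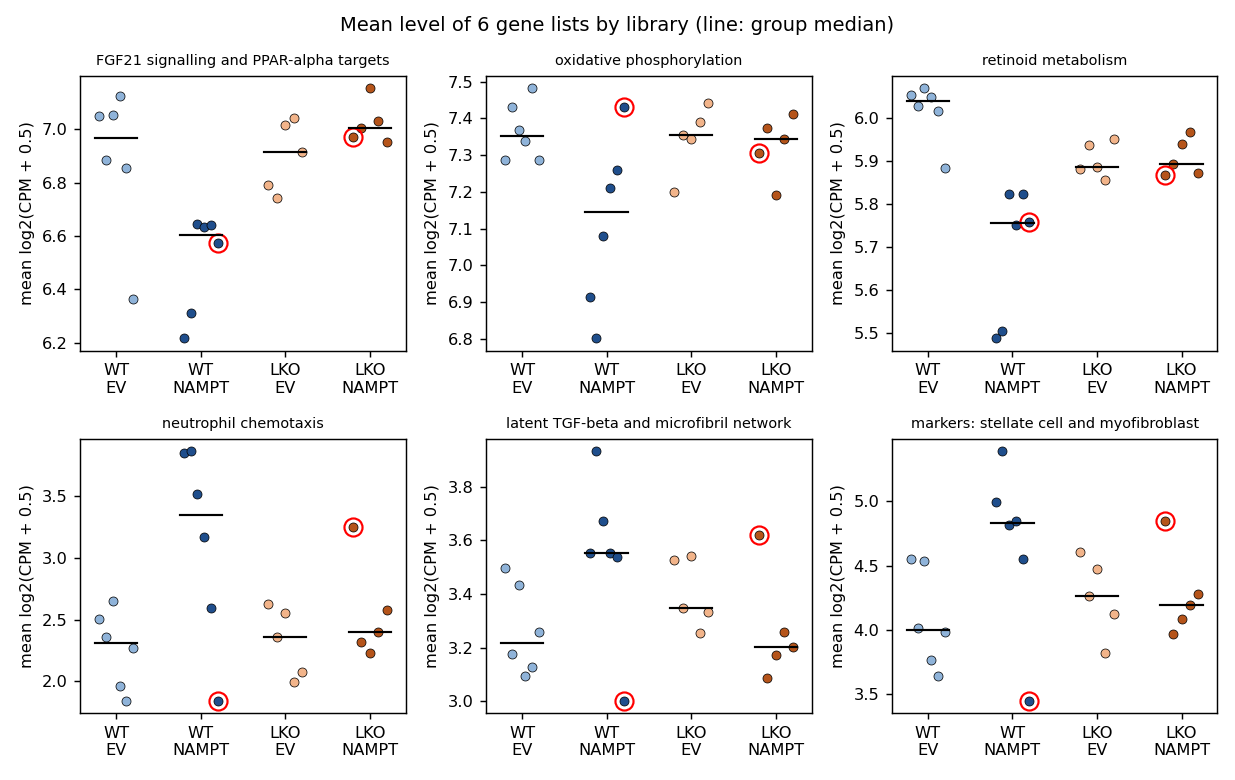
Mean log2(CPM + 0.5) over the tested genes of 6 lists in each library (points), with the group median (line); red circles mark WT NAMPT replicate 6 and LKO NAMPT replicate 1. For neutrophil chemotaxis, latent TGF-β and stellate markers replicate 6 is the lowest WT NAMPT library and replicate 1 the highest LKO NAMPT library, while for PPARα targets all WT NAMPT libraries lie between 6.22 and 6.65.

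The plot of lists by library shows where single libraries lay in the 6 lists drawn. For neutrophil chemotaxis the mean level was 1.84 to 3.86 in WT NAMPT, with replicate 6 at the bottom beside WT EV at 1.84 to 2.65, and LKO NAMPT ran from 2.23 to 3.25 with replicate 1 at the top. For PPARα targets all WT NAMPT libraries lay between 6.22 and 6.65 and the LKO NAMPT libraries between 6.95 and 7.15. One WT EV library, replicate 8, was at 6.37 in that list and the other WT EV libraries were higher than every WT NAMPT library. For oxidative phosphorylation replicate 6 was the highest WT NAMPT library at 7.43, against 6.8 to 7.26 for the others. Lists not drawn also spread widely in WT NAMPT, with bile acid synthesis and transport from 6.55 to 7.97 and de novo lipogenesis from 7.15 to 8.72.

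NF-κB signalling had 10 negative and 1 positive of 33 genes at an unadjusted p under 0.05 (10.1% and 11.1% over all genes) and a median of -0.57, with 17 rising in WT (7.40% of genes). By edgeR 4 were negative and by DESeq2 5 (4.65% and 5.04% of genes), and with the surrogate variables 3 were (5.71%) and the median was -0.10. Relb, a non-canonical NF-κB subunit, rose 2.30-fold in WT (limma adjusted p = 0.0105) with an LKO estimate of -0.01 and an interaction of -1.21 ± 0.36 (adjusted p = 0.0944). Nfkb1 had -0.46 ± 0.14 (adjusted p = 0.0944). T-cell regulation had 4 negative and 0 positive of the 15 genes tested, while 13 of the 28 listed genes were too low to test. Its median was -0.70, or -0.39 without LKO EV replicate 3, -0.44 without WT NAMPT replicate 3 and -0.23 with the surrogate variables. Lck, the T-cell receptor-proximal kinase, was at most 1.58 CPM in any library, and its interaction of -1.57 ± 0.48 (adjusted p = 0.0977) came more from LKO (-1.12) than from WT (0.45). PI3K-AKT signalling had 7 negative and 3 positive of 33 and a median of 0.02, and 4 negative and 1 positive by edgeR (4.65% and 5.77% of genes). The PI3K-AKT median turned sign in some settings. It was -0.035 with upper-quartile scaling, -0.12 with library totals, -0.029 with the surrogate variables and -0.015 without WT NAMPT replicate 2. Negative members of the list included Akt1 (-0.38 ± 0.11, adjusted p = 0.0866) and the leukocyte isoforms Pik3cg (-1.14), Pik3cd (-1.07) and Pik3r5 (-1.82), and its positive ones the insulin receptor gene Insr (0.27) and Gsk3b (0.23).

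Other genes fixed by rank within their list did not pass either by limma with sample weights on all 22 libraries. Under the 14 settings that changed the method or left out the 5 low-weight libraries, Ndufb5, Akr1d1, Ugt1a1, Hsd17b7, Hsp90b1 and Gadd45b each passed in 1. In none of them did Ptprc, Hpx, Hamp, Cd59a or C4bp pass. On the positive side by limma these were Ndufb5 of complex I (0.48, adjusted p = 0.0909), the bile acid reductase gene Akr1d1 (1.0, adjusted p = 0.0947), the bilirubin conjugating enzyme gene Ugt1a1 (0.78, adjusted p = 0.101), the sterol synthesis gene Hsd17b7 (0.72, adjusted p = 0.107) and the ER chaperone gene Hsp90b1 (0.45, adjusted p = 0.104). The CAR target Gadd45b was negative (-2.65 ± 0.82, adjusted p = 0.0983) and rose 5.04-fold in WT, and the pan-leukocyte phosphatase gene Ptprc was at -0.88 ± 0.35 (adjusted p = 0.167). Among secreted proteins, the heme carrier hemopexin (Hpx) had -0.70 ± 0.26 (adjusted p = 0.135), and the iron hormone hepcidin (Hamp) had -1.72 ± 0.69 (adjusted p = 0.166) with an LKO estimate of -1.49. The complement regulators Cd59a and C4bp had 0.54 and 0.36 (adjusted p = 0.107 and 0.135).

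The remaining lists are again read against 11.1% positive and 10.1% negative at an unadjusted p under 0.05. ATF4 stress response genes had 5 negative and 1 positive of 23, 7 rising in WT (7.40% of genes), a median of -0.65, and Ddit3, which encodes CHOP, as the smallest p (-1.30 ± 0.35, limma adjusted p = 0.0866), followed by the mitochondrial folate enzyme gene Mthfd2 (-1.55, adjusted p = 0.115). By edgeR and by DESeq2 7 ATF4 genes were negative (4.65% and 5.04% of genes). Their median was -0.40 without WT NAMPT replicate 1, -0.33 without WT NAMPT replicate 2, -0.38 without LKO NAMPT replicate 2 and -0.09 with the surrogate variables. Circadian clock and output genes had 4 negative and 2 positive of 26. The casein kinase gene Csnk1e was at -0.60 ± 0.17 (adjusted p = 0.0872). In the same list Noct, the rhythmic deadenylase-family phosphatase nocturnin, rose 2.67-fold in WT (adjusted p = 0.0154) with an interaction of -1.61 ± 0.48 (adjusted p = 0.0944). A clock-gene score ran from -1.19 to 1.09 over the libraries and was not balanced between the groups. In WT EV it was -1.169, -1.174 and -1.19 in replicates 1, 2 and 4 and at most 0.684. WT NAMPT ran from -0.489 to 1.085, LKO EV from -1.119 to 0.936 and LKO NAMPT from -0.842 to 0.99. The part of this imbalance in the NAMPT effects was not tested. With that score as a covariate 553 genes (3.97%) were called for the interaction. Interferon-stimulated genes had 1 negative and 0 positive of 30, and 12 rose in WT (7.40% of genes). In LKO none was called, and 9 had a positive estimate at an unadjusted p under 0.05 (4.18% of genes). Of the interferon-stimulated genes Ifi27 (-0.60, adjusted p = 0.146) and the regulator Irf7 (-0.88, adjusted p = 0.242) had the smallest interaction p values, and without WT NAMPT replicate 3 they were at -0.38 and -0.47. The median of that list was -0.34, or -0.02 without the same library and 0.22 with the surrogate variables. Cell cycle genes had 1 negative of 26, Ccnd1 (-1.57 ± 0.52, adjusted p = 0.112), and Cdc20 was at -1.55 (adjusted p = 0.279). By edgeR 4 cell cycle genes were negative and by DESeq2 5 (4.65% and 5.04% of genes), and the median of -0.48 was -0.95 by edgeR, 0.12 with the surrogate variables and ran from -0.78 (WT NAMPT replicate 5 left out) to -0.20 (replicate 2 of that group left out) without single libraries. Complement had 4 positive and 4 negative of 28, acute-phase proteins 1 and 2 of 25, male-biased liver genes 3 and 1 of 22 and female-biased ones 1 and 0 of 16. Susd4 (2.36 ± 0.75, adjusted p = 0.104) and Gstp2 (-0.88, adjusted p = 0.155) led the male-biased list, and Cyp2b9 (2.91 ± 1.5, adjusted p = 0.262) followed Cyp4a14 in the female-biased one. NAD metabolism and sirtuins had 3 positive and 0 negative of 30, led by the mitochondrial NAD kinase gene Nadk2 (0.51 ± 0.14, adjusted p = 0.0866) and the kynurenine pathway gene Kmo (0.59 ± 0.17, adjusted p = 0.0944).

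**Figure D5:**
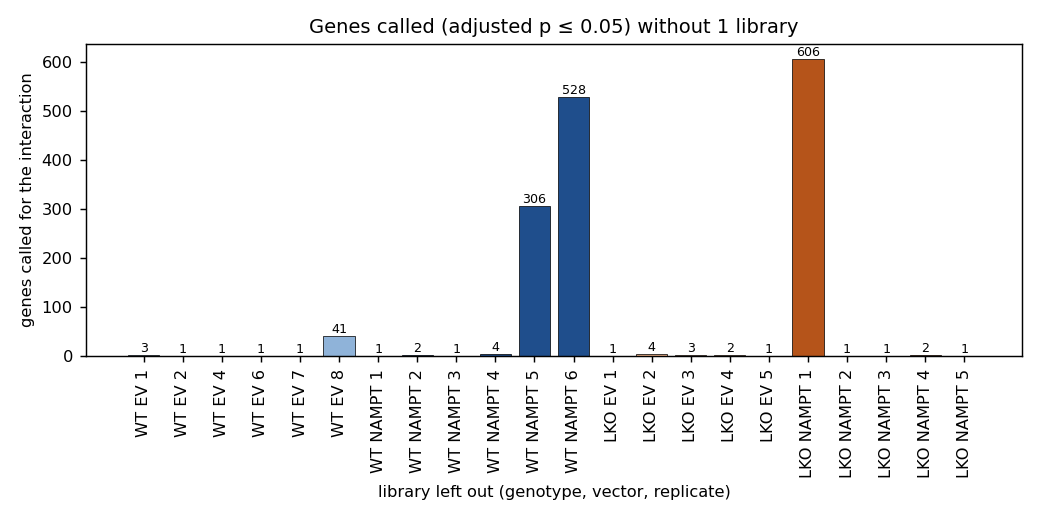
Number of genes called for the interaction (y axis, limma adjusted p of at most 0.05) when the library named on the x axis is left out. Leaving out LKO NAMPT replicate 1, WT NAMPT replicate 6 or WT NAMPT replicate 5 gives 606, 528 and 306 genes, WT EV replicate 8 gives 41, and each of the other libraries 1 to 4.

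The number of genes called for the interaction depended on single libraries, as the counts without 1 library show. With all 22 it was 1. Without LKO NAMPT replicate 1 it was 606 (4.36%, 332 positive and 274 negative), without WT NAMPT replicate 6 it was 528 (3.79%), without WT NAMPT replicate 5 it was 306 (2.20%), and without WT EV replicate 8 it was 41. Leaving out any of the other 18 libraries gave 1 to 4 genes. On the first principal component WT NAMPT replicates 5 and 6 had the highest values of their group and LKO NAMPT replicate 1 the lowest of its group, and the counts without them come from libraries set aside after their values were seen. Without all 5 libraries of sample weight under 0.6 268 genes were called (1.97%), 129 positive and 139 negative.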

How the data were processed

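Whole liver RNA from 25 mice was sequenced, and the 22 Western diet libraries were analysed, with the 3 chow libraries left out of the fit except as an alternative. Per the labels and the submitters' processing notes, the authors made the gene counts with STAR 2.5.1a and featureCounts 1.4.6-p5 (Subread) on GRCm38, and deposited CPM and RPKM computed from the same counts. The deposited CPM and RPKM values could be recomputed from the counts and were used for that check only. Whether counting used strand is not given in the sources used here, so a gene and an overlapping antisense gene cannot be told apart, and close copies such as the Cyp4a genes may share reads.

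Genes above 1 CPM in at least 2 libraries were kept and 4 rRNA genes removed, leaving 13935. Counts were TMM-scaled (edgeR 4.0.16) and fitted with voom sample quality weights in limma 3.58.1 (R 4.3.3), with a mean for each of the 4 groups. The interaction was the LKO effect minus the WT effect, called at a two-sided Benjamini-Hochberg adjusted p of at most 0.05 over all genes. List levels are means of log2(CPM + 0.5). Depth of 20166175 to 32937326 counts per library limits genes of a few CPM, and intervals are 95%. Samples were taken as separate mice by their labels, and p-values measure only the spread between these libraries. On simulated data a 2-fold interaction in 200 of 13692 genes was recovered in 50.5%, with 3 false calls. The simulated counts had a common mean per gene apart from depth, with the change placed in LKO NAMPT only. They had no NAMPT effect in WT and no spread shared by the genes of a library. Both rates therefore need not hold for the libraries here.

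The rule for named genes took 69, those called, the 10 of smallest interaction p in each direction at a mean log2 CPM of at least 1, leaving out predicted-gene names, a panel of 9, and the 2 of smallest p in each of 22 lists. Other members of a list are named by their role and were chosen after their values were seen. The members, the 22 lists and the 10 marker lists were chosen with earlier results of these data known, so their counts and medians are descriptions. A few results are not reported here. Alternatives were other scalings, no filter, no sample weights, edgeR's quasi-likelihood test, DESeq2 1.42.0, surrogate variables (sva 3.50.0), a clock-gene covariate, a replicate block and leaving out libraries.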

Additional observations from a re-analysis of the deposited data

Results flagged for a closer look

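By limma with sample weights on all 22 libraries, Adamtsl2 was the one gene whose NAMPT effect differed between the genotypes by the test of the difference itself. Its interaction was -1.90 on the log2 scale. Other settings called 0 to 553 genes, as given below.

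In 20 of the 272 sets of 1 named gene in 1 group (7.35%), a single library stood apart from the rest of its group by Dixon's criterion, where chance gives about 1 in 20. The largest number, 8, fell on LKO NAMPT replicate 1, where the levels in CPM were 43.4 for Slc20a1, 308 for Cyp4a10, 673 for Aldh1a1, 89.4 for Scd2, 30.7 for Nfkb1, 30.9 for Ptprc, 6.85 for Itgam and 6.12 for Ltbp3. LKO NAMPT replicate 3 stood apart for Dlec1 (3.41 CPM), Fasn (2720 CPM) and Cyp4a14 (710 CPM), and LKO NAMPT replicate 5 for Cd59a (84.6 CPM). Among WT NAMPT libraries, replicate 2 stood apart for Vasn (16.5 CPM) and Cdc20 (23.4 CPM), replicate 3 for Irf7 (126 CPM) and replicate 6 for Susd4 (37.7 CPM). In the EV groups, WT EV replicate 8 stood apart for Pkd1 (42.3 CPM) and Gstp2 (35.7 CPM), WT EV replicate 1 for Hsp90b1 (257 CPM) and LKO EV replicate 3 for Gstp2 (6.83 CPM).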

How the results depend on the processing

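The interaction called 1 gene with the settings of the report. It called 5 with upper-quartile scaling, 2 with DESeq2 size factors, 5 with library totals alone, 0 with edgeR's quasi-likelihood test (1452 at an unadjusted p under 0.05), 14 with DESeq2, 0 with voom without sample weights (1514 at an unadjusted p under 0.05), 5 without the filter, 2 with 2 surrogate variables, 553 with the clock-gene score and, in an alternative chosen after seeing the data, 268 without the 5 libraries of sample weight under 0.6. Leaving out single libraries gave 1 to 606. The NAMPT effect in WT called 1816 genes, and 71 with edgeR's quasi-likelihood test, 1058 with DESeq2, 18 without sample weights, 324 without the filter, 22 with surrogate variables and 98 to 2820 without single libraries. The LKO effect called 1 gene, 3 with DESeq2, 0 with edgeR's quasi-likelihood test, without sample weights, without the filter and with surrogate variables, and 0 to 6 without single libraries. The causes were not tested. Over 25 pairs of same-numbered libraries the correlation of deviations ran from -0.379 to 0.422 and 11 exceeded 0.1. Pairs of replicate 1 ran from 0.0851 to 0.422. Pairs with different numbers were not compared, so whether replicate numbers pair the samples or mark a batch cannot be told from these values. With the replicate block 39 genes were called for the interaction (6 of them in the PPARα list), 732 in WT and 0 in LKO. Adamtsl2 lost its call with edgeR's quasi-likelihood test (adjusted p = 0.218) and without sample weights (adjusted p = 0.144). Interactions that turned negative were Acaca at -0.032 with upper-quartile scaling, -0.14 with library totals and -0.16 without the 5 libraries, Nampt at -0.0966 and -0.0223 with the last 2 settings, Pklr at -0.0623 and -0.0095 with the same 2 and -0.13 with surrogate variables, and Fasn at -0.0027 without the 5 libraries. Without single libraries Acaca ran from -0.11 to 0.18, Nampt from -0.0692 to 0.22 and Pklr from -0.0214 to 0.29. With 2 surrogate variables the interaction went from -1.41 to -0.18 for Fgf21, -1.55 to -0.20 for Cdc20, -0.88 to -0.14 for Ptprc, -1.21 to -0.50 for Relb, -2.65 to -0.87 for Gadd45b, -1.57 to -0.52 for Ccnd1 and 2.36 to 0.75 for Susd4, while Adamtsl2 was at -1.54 and Cyp4a10 at 2.27. Of the 22 list medians 6 turned sign in that fit, 9 were smaller by more than 1.5 times and 3 larger, and with the replicate block the counts were 2, 10 and 4. Of 2483 values of single genes under the alternatives, 2205 kept their direction and side of the threshold, 248 passed it newly, 2 lost it and 28 turned sign.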
